A study of Mus musculus with 6 samples.

Results

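Cholesterol synthesis and its control by the sterol regulatory element-binding proteins (SREBPs) were followed in mouse liver through 28 genes, of 16513 genes that could be tested. The genes were chosen by name. Of these, 19 encode enzymes of the pathway from acetyl-CoA to cholesterol, 8 of the mevalonate branch and 11 of the sterol branch. The 8 include Ggps1, which makes geranylgeranyl diphosphate and so leads away from cholesterol. Another 6 encode SREBP-2 and the proteins that hold, escort or cut SREBPs, and 3 encode proteins that move cholesterol within the cell. All 28 were found on the array and all 28 were tested. The groups were SIRT1 LKO mice, in which the NAD-dependent deacetylase SIRT1 had been deleted in the liver, and Lox control mice. Both groups were male, 95% C57BL/6, 10 weeks old, fed chow without restriction and killed at 4 pm. The labels do not name the Cre transgene behind the deletion. Each group held 6 mice, whose liver RNA was pooled from 2 animals per replicate, which gave 3 LKO pools and 3 control pools.

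Mammalian cells build cholesterol from acetyl-CoA through mevalonate, isoprenoid diphosphates, squalene and lanosterol. SREBP-2 is made as a precursor in the endoplasmic reticulum, where the sterol sensor Scap escorts it. When sterols are plentiful, Insig proteins hold Scap back. When sterols are scarce, Scap carries the precursor to the Golgi, where the proteases encoded by Mbtps1 and Mbtps2 release the part that enters the nucleus and binds promoters of synthesis genes, commonly beside the CCAAT-binding factor NF-Y. In liver this pathway is known to respond to feeding and to dietary sterol, and its genes tend to move as a group.

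One 1-colour Agilent array of the whole mouse transcriptome was run per pool. Levels below are log2 intensities minus the 75th percentile of the array, which lay between 1005 and 1056 intensity units in 5 arrays and at 1289 in LKO pool 3. The share of 41174 probes well above background lay between 52.2% and 66.4%, and the number of arrays limits the precision. No probe that stands for 1 of the 28 genes was saturated. The controls lay on 1 slide, LKO pools 1 and 2 on another and LKO pool 3 on the third, so slide and genotype cannot be told apart. LKO pool 3 also differed between the deposited sources. Between 99.7% and 99.8% of probes had the same intensity to within 1% in the scanner file and the value table of every other pool. For LKO pool 3 that share was 0.857%, and the median ratio of table to scanner was 0.719. Results are therefore given from the scanner files, without LKO pool 3, and with the value table. Sirt1 read -0.07, 0.09 and 0.16 in LKO pools 1, 2 and 3, against 0.29, 0.37 and 0.24 in control pools 1, 2 and 3. Every LKO pool was below every control pool, but the difference of -0.24 ± 0.10 (SE) did not pass (limma, adjusted p = 0.237), and whether the probe lies in the deleted part is not given. A dimmer Sirt1 probe read -0.80, -0.85 and -0.48 in the LKO pools, against -0.76, -0.64 and -0.67 in the controls, a difference of -0.02. On it LKO pools 1 and 2 were below every control and LKO pool 3 above every control. Of 8 hepatocyte markers 7 were tested, at a mean level between 6.93 and 7.20 in LKO arrays and between 6.93 and 7.11 in control arrays, with none past the threshold. Fewer cells of a type and less RNA per cell cannot be told apart in whole liver.

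The 250 bases before the RefSeq gene start (assembly GRCm38.p6) are shown for 5 of the genes on which the results turn. Hmgcs1 (chr13:119690101-119690350, plus strand) encodes the cytosolic HMG-CoA synthase and Idi1 (chr13:8885356-8885605, plus strand) the isopentenyl diphosphate isomerase, both of which read lower for LKO pool 3 in the value table than in the scanner file. Hsd17b7 (chr1:169969206-169969455, minus strand) encodes a ketosterol reductase, Srebf2 (chr15:82147019-82147268, plus strand) encodes SREBP-2 and Insig1 (chr5:28071162-28071411, plus strand) encodes an anchor of Scap. Each is written 5′ to 3′ with the gene start after the last base. Capitals mark the letters TCACNCCAC, a form of the sterol regulatory element, and CCAAT, the box that NF-Y is known to bind, on either strand (ATTGG is CCAAT read on the other strand).
Hmgcs1: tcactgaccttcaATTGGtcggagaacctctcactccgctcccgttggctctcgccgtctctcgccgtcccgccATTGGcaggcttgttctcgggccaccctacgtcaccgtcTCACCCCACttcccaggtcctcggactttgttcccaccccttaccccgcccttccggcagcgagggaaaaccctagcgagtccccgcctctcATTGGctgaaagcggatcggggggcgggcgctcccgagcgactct
Idi1: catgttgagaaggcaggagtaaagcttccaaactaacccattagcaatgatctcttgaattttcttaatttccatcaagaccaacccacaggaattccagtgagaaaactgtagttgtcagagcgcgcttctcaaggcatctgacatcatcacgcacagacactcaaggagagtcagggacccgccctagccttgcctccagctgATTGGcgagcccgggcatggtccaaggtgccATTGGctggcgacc
Hsd17b7: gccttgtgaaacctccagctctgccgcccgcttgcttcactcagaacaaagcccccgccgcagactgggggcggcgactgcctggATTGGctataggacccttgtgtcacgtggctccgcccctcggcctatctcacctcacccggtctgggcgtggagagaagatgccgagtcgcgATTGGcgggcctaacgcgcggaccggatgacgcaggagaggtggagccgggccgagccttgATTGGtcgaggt
Srebf2: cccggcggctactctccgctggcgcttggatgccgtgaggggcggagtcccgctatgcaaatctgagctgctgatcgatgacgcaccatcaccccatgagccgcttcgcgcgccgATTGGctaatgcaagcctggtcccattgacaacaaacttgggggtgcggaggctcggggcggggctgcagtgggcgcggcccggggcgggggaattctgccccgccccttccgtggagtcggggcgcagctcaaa
Insig1: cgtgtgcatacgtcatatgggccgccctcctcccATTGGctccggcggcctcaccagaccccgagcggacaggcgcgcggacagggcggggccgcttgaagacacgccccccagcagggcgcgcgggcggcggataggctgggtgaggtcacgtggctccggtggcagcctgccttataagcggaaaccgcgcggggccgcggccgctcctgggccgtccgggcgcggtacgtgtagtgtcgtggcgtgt
In this window Hmgcs1 held 1 TCACNCCAC match, at position -137 counted from the start, and 3 CCAAT boxes, none of which overlap it. The other promoters shown held no TCACNCCAC match. Hsd17b7 held 3 CCAAT boxes, Idi1 held 2, and Srebf2 and Insig1 held 1 each. Of the 28 genes, 23 had an entry, and Fdps, Fdft1, Sqle, Stard4 and Npc1 are named only. CCAAT was present in 19 of these 23 genes (82.6%) and in 15 of 16 enzymes (93.8%), whereas 37.5% of 27025 genes in the table held it in at least 1 listed promoter. TCACNCCAC was present in 1 of 23 genes (4.35%) and in 1.22% of all genes. A match is a description of letters in this window and is not evidence of binding.

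In LKO livers, no step of cholesterol synthesis and no part of its SREBP control passed the test against Lox controls when all 6 pools were used. None of the 28 genes passed an adjusted p of 0.05 (limma, two-sided, Benjamini-Hochberg over 16513 genes), where 24 genes or 0.145% of all genes passed. The 95% intervals of Hsd17b7, Srebf2 and Stard4 did not include 0, and these were the 3 genes at an unadjusted p under 0.05 (10.7%), against 21.1% of all genes. The LKO and control pools did not overlap for 4 genes (14.3%), Srebf2 and Npc1 higher and Hsd17b7 and Stard4 lower in LKO, against 28.8% of all genes (15.2% higher and 13.6% lower). Both shares lay below those of all genes. The median difference of the 28 genes was -0.02, with 11 higher (39.3%) and 17 lower in LKO, and that of all genes was 0.02, with 53.5% higher. Without LKO pool 3, 8 of the 28 genes (28.6%) had an unadjusted p under 0.05, against 30.2% of all genes. In that fit 12 (42.9%) did not overlap, against 51.3% of all genes. With the value table these counts were 3 (10.7%), against 25.9% of all genes, and 4 (14.3%), against 34%. In the fit without LKO pool 3, 18 of the 28 genes (64.3%) were higher in LKO, against 54.5% of all genes. A p above the threshold does not show equal levels: the 95% interval for Fdps, the widest but one, ran from -0.48 to 1.74.

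**Figure D1:**
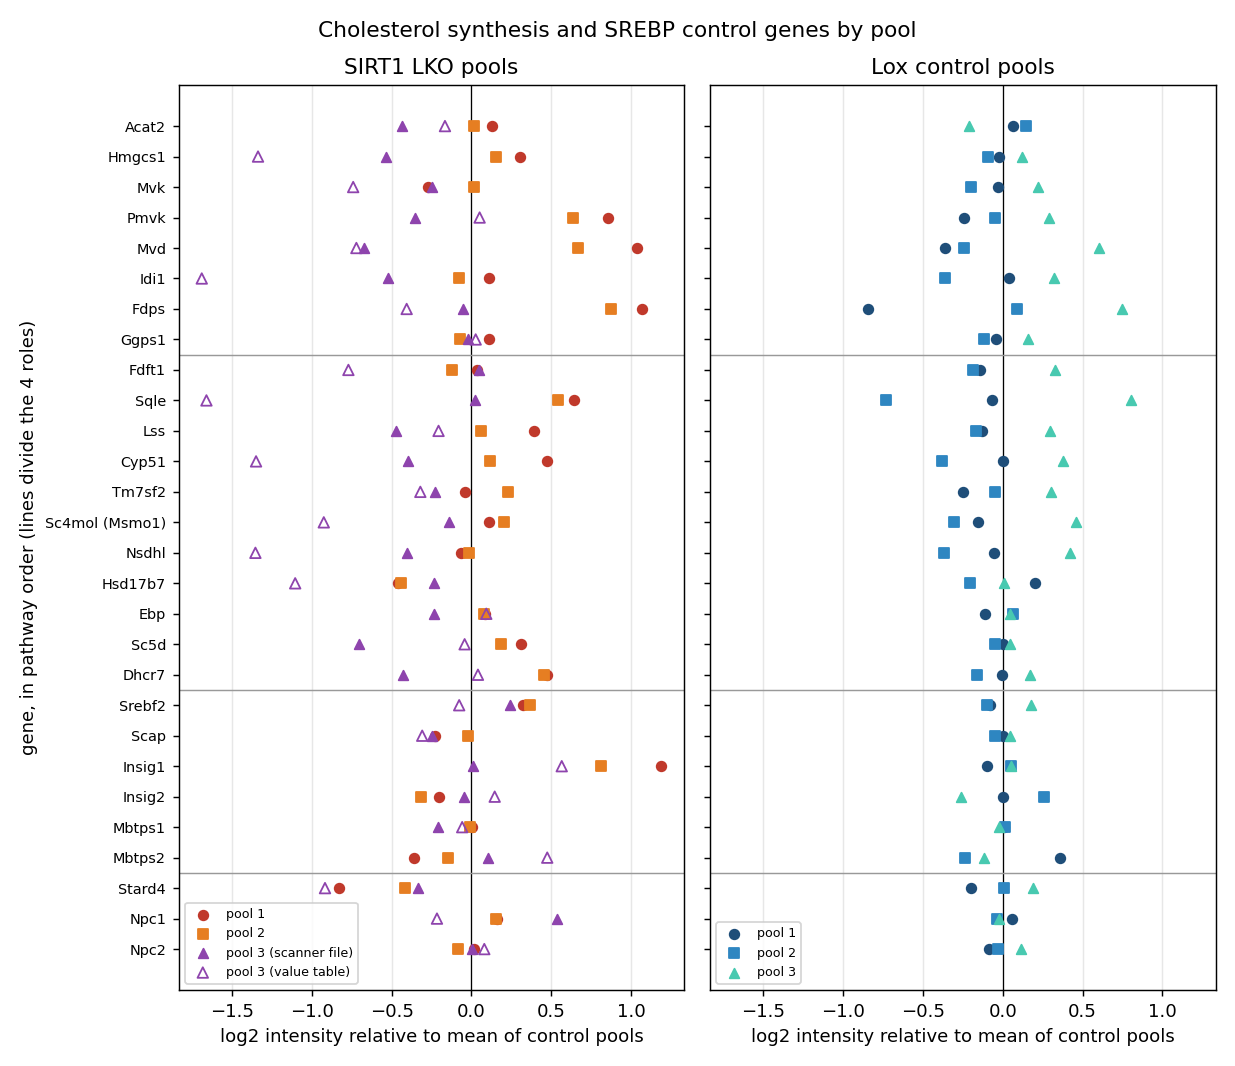
Log2 intensity of each of the 28 genes in each pool, relative to the mean of the 3 control pools for that gene (x axis), with genes in pathway order down the y axis, LKO pools in the left panel and control pools in the right. Open triangles give LKO pool 3 from the value table; for most enzymes LKO pools 1 and 2 lie right of LKO pool 3, and control pool 3 lies right of the other controls.

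In the mevalonate branch, LKO pools 1 and 2 were above the controls in some genes and mixed with them in others. Over the 19 enzymes of both branches, LKO pool 1 was above every control in 47.4% and LKO pool 2 in 36.8%. The shares of all genes without a missing value were 37.7% and 37%. Fdps, which joins isoprenoid units into farnesyl diphosphate, read 6.33, 6.13 and 5.21 in LKO pools 1, 2 and 3, against 4.42, 5.36 and 6.01 in control pools 1, 2 and 3. LKO pools 1 and 2 were above all controls, while LKO pool 3 lay among them, and the difference was 0.63 ± 0.46 (SE, adjusted p = 0.469). It was 0.21 without control pool 1 and 1.004 without control pool 3. The 3 control pools of Fdps themselves covered 1.59 log2 units. A dimmer Fdps probe differed by -0.01, with LKO pool 1 the lowest of the 6 (-1.93) and LKO pool 3 the highest (-0.76). Pmvk, the phosphomevalonate kinase, read 5.73, 5.51 and 4.52 in the LKO pools, against 4.63, 4.83 and 5.16 in the controls. Mvd, which decarboxylates mevalonate diphosphate, read 2.06, 1.69 and 0.35 in the LKO pools, against 0.66, 0.78 and 1.63 in the controls. In both genes LKO pools 1 and 2 were the highest of the 6 and LKO pool 3 the lowest. Their differences were 0.38 (adjusted p = 0.542) and 0.35 (adjusted p = 0.714) with all pools, and 0.74 (adjusted p = 0.0744) and 0.85 (adjusted p = 0.156) without LKO pool 3.

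Hmgcs1 read 5.79, 5.63 and 4.95 in LKO pools 1, 2 and 3, with 4.15 for pool 3 in the value table, against 5.46, 5.39 and 5.60 in the controls. LKO pools 1 and 2 were again highest and pool 3 lowest, and the difference was -0.02 with an interval from -0.56 to 0.51. Idi1 read 5.06, 4.87 and 4.43 in the LKO pools, with 3.26 for pool 3 in the value table, against 4.99, 4.59 and 5.27 in the controls. Its groups overlapped and the difference was -0.16 (adjusted p = 0.721). The file places both Idi1 probes on chromosome 2 of mm7, whereas the RefSeq table has the gene on chromosome 13, so the target of these probes is uncertain. The other enzymes of the branch differed little in mean. Acat2, the cytosolic thiolase that opens the pathway and may share signal with its close copy Acat3, differed by -0.09 (interval -0.52 to 0.33), Mvk, the mevalonate kinase, by -0.17 (-0.51 to 0.18), and Ggps1, which makes geranylgeranyl diphosphate for protein prenylation, by 0.00 (-0.26 to 0.27).

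In the sterol branch, 1 enzyme separated the groups. Hsd17b7, which reduces the ketosterol left after removal of a methyl group, read 1.82, 1.84 and 2.04 in LKO pools 1, 2 and 3, against 2.48, 2.07 and 2.28 in control pools 1, 2 and 3. All LKO pools were below all control pools, by 0.03 at the closest, and the difference was -0.38 ± 0.13 (SE, interval -0.70 to -0.06, adjusted p = 0.185). It was -0.45 without LKO pool 3 (adjusted p = 0.107) and -0.67 with the value table (adjusted p = 0.121), where LKO pool 3 read 1.17. That probe lies at chr1:169928936-169928995 (mm7, minus strand). A second probe, at chr1:169926548-169926607, read 2.01, 1.89 and 1.92 in the LKO pools, against 1.62, 1.60 and 2.14 in the controls, a difference of 0.15 in the other direction. The direction for Hsd17b7 therefore depended on the probe.

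Sqle, the squalene epoxidase that catalyses a rate-limiting oxygenation, read 3.46, 3.36 and 2.84 in LKO pools 1, 2 and 3, against 2.75, 2.08 and 3.62 in the controls. The value table put LKO pool 3 at 1.16, below every other pool. The difference of 0.40 (interval -0.53 to 1.34) with the scanner files became -0.16 (-1.85 to 1.54) with the value table. Cyp51, the lanosterol demethylase, read 2.95, 2.59 and 2.07 in the LKO pools, with 1.12 in the value table for pool 3, against 2.47, 2.09 and 2.85 in the controls. Its groups overlapped, and the difference was 0.07 (interval -0.60 to 0.73). Dhcr7, the reductase that forms cholesterol at the last step of one of the late branches, read 5.34, 5.32 and 4.43 in the LKO pools, against 4.86, 4.70 and 5.04 in the controls. LKO pools 1 and 2 were above all controls and LKO pool 3 below them, so that the difference was 0.16 (adjusted p = 0.748) with all pools and 0.46 (adjusted p = 0.0802) without LKO pool 3.

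Sc5d, a sterol desaturase, read 6.76, 6.63 and 5.74 in LKO pools 1, 2 and 3, against 6.45, 6.40 and 6.49 in the controls. The controls covered 0.10, while the difference of LKO pool 3 from the mean of LKO pools 1 and 2 was -0.95. The remaining sterol enzymes had differences between -0.16 and 0.06, and their groups overlapped. These were Fdft1, the squalene synthase (-0.01), Lss, which closes the sterol rings (-0.01), Tm7sf2, a sterol reductase (-0.01), Sc4mol (current symbol Msmo1), a methylsterol oxidase (0.06), Nsdhl, a sterol dehydrogenase (-0.16), and Ebp, a sterol isomerase (-0.02). Of the 11 sterol enzymes 4 were higher and 7 lower in LKO, with none past the threshold, and their median difference was -0.01.

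Among the genes that control SREBPs, Insig1 had the largest difference of the 28 genes. Insig1, itself a known target of nuclear SREBPs, read 3.38, 3.002 and 2.20 in LKO pools 1, 2 and 3, against 2.09, 2.24 and 2.24 in control pools 1, 2 and 3. LKO pools 1 and 2 were above every control, LKO pool 3 lay within the controls, and the controls covered 0.15. With all pools the difference was 0.67 ± 0.29 (SE, interval -0.02 to 1.36, adjusted p = 0.250), and without LKO pool 1 it was 0.41. Without LKO pool 3 Insig1 rose 2.00-fold, a log2 difference of 1.001 (interval 0.65 to 1.35, adjusted p = 0.0478), as the only one of the 28 genes past the threshold (3.57%), where 449 genes or 2.72% of all genes passed. In that fit both LKO pools lay on 1 slide and all controls on another. With the value table, where LKO pool 3 read 2.75, all LKO pools were above all controls and the difference was 0.86 (interval 0.46 to 1.26, adjusted p = 0.0663). The probe lies at chr5:27110161-27110220 (mm7, plus strand). A second probe, split over positions 27107061 to 27107533 and so across an exon junction, read 1.34, 1.05 and 0.47 in the LKO pools, against 0.43, 0.58 and 0.61 in the controls. Both probes had the same order, with LKO pools 1 and 2 high and LKO pool 3 among the controls.

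Srebf2 read 3.59, 3.63 and 3.51 in LKO pools 1, 2 and 3, against 3.19, 3.17 and 3.45 in control pools 1, 2 and 3. Every LKO pool was above every control, and the difference was 0.31 ± 0.11 (SE, interval 0.04 to 0.57, adjusted p = 0.186). In the value table LKO pool 3 read 3.19 and lay among the controls, which left a difference of 0.20 (interval -0.16 to 0.57). This probe lies at chr15:82289660-82289719 (mm7, plus strand). The other probes of Srebf2 well above background in both groups differed by -0.04 and 0.09 with overlapping pools, and a dim probe, well above background on 0 of 3 control arrays and 3 of 3 LKO arrays, overlapped too.

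The partners of SREBP-2 differed less. Scap read 5.61, 5.81 and 5.59 in LKO pools 1, 2 and 3, against 5.84, 5.79 and 5.88 in the controls, a difference of -0.17 (interval -0.40 to 0.07). LKO pool 2 overlapped the controls and the other LKO pools lay below them. Insig2, the paralogue of Insig1 that is known to be held down by insulin in rodent liver, read 3.62, 3.51 and 3.78 in the LKO pools, against 3.82, 4.08 and 3.56 in the controls. Its difference of -0.19 (interval -0.56 to 0.18) was opposite in sign to that of Insig1, and neither passed with all pools. Mbtps1, which makes the first cut in SREBPs, differed by -0.07 (interval -0.30 to 0.16). Mbtps2, which makes the second cut within the membrane, was dim, at -4.88, -4.67 and -4.42 in the LKO pools, against -4.17, -4.76 and -4.64 in the controls, and 1 control array did not show it well above background.

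**Figure D2:**
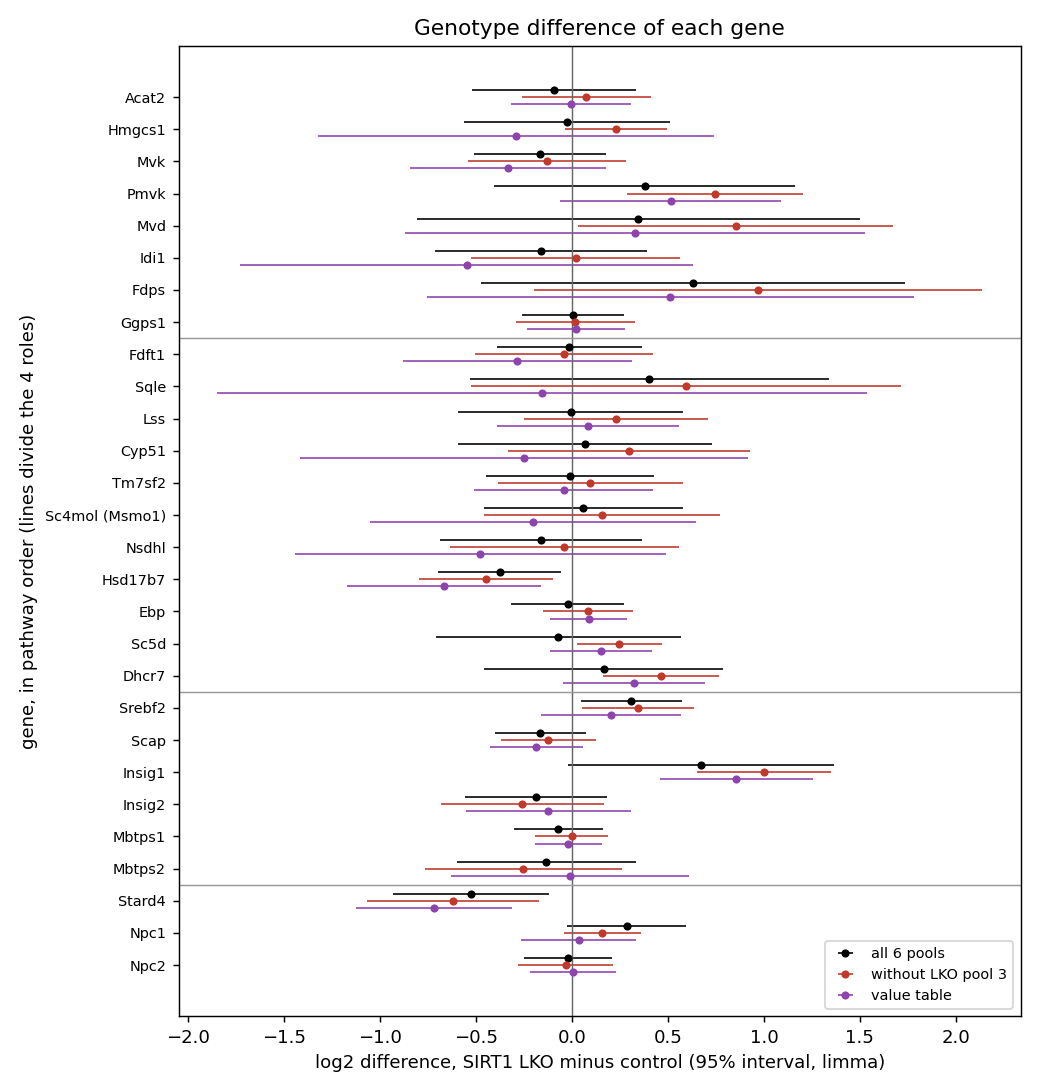
LKO minus control difference of each gene in log2 units (x axis) with its 95% interval from limma, for all 6 pools (black), without LKO pool 3 (red) and with the value table (purple), genes in pathway order down the y axis. Insig1 stands at 0.67 with all pools and at 1.001 without LKO pool 3, while Stard4 and Hsd17b7 lie left of 0 in all 3 fits.

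Among the transport genes, Stard4, a cytosolic sterol carrier and known SREBP-2 target, read 2.34, 2.75 and 2.83 in LKO pools 1, 2 and 3, against 2.96, 3.17 and 3.35 in control pools 1, 2 and 3. All LKO pools were below all controls, and the difference was -0.53 ± 0.17 (SE, interval -0.93 to -0.12, adjusted p = 0.160). It was -0.62 (adjusted p = 0.0947) without LKO pool 3 and -0.72 (adjusted p = 0.0777) with the value table. Its other probes, which cover spans of 876 and 1990 bases with 60 bases each and so cross exon junctions, differed by 0.32 and 0.19, in the other direction. On both of these LKO pools 1 and 2 were above all controls. Npc1, the membrane protein that exports cholesterol from lysosomes, read 2.47, 2.46 and 2.84 in the LKO pools, against 2.37, 2.27 and 2.28 in the controls. LKO was higher in every pool, by 0.28 (interval -0.02 to 0.59, adjusted p = 0.266), with the highest value in LKO pool 3, which the value table put at 2.09, below the controls. Npc2, its soluble partner in the lysosome, differed by -0.02 (interval -0.25 to 0.21).

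**Figure D3:**
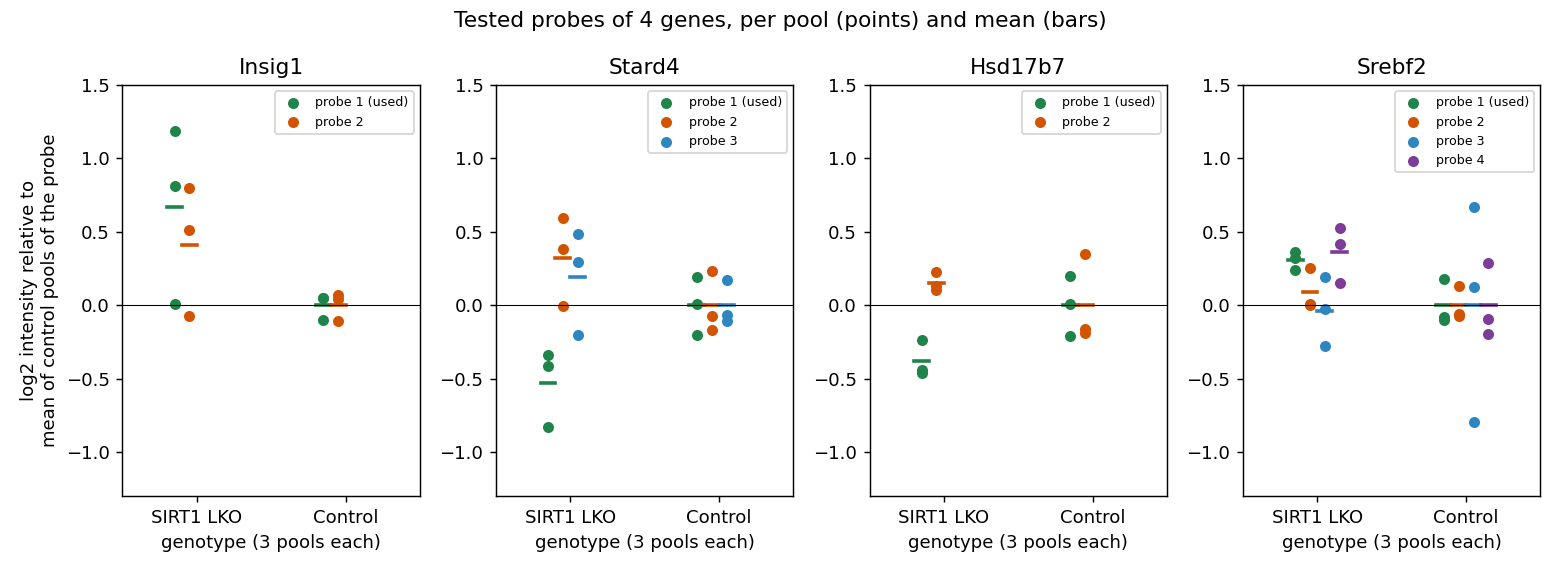
Every tested probe of Insig1, Stard4, Hsd17b7 and Srebf2: log2 intensity of each pool relative to the mean of the 3 control pools for that probe (y axis), LKO left of control on each x axis, with bars at group means. The probes of Insig1 share a direction (0.67 and 0.41), whereas those of Stard4 (-0.53, 0.32 and 0.19) and Hsd17b7 (-0.38 and 0.15) do not.

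Most genes were covered by several probes, and these often disagreed. The 28 genes had 60 probes, of which 56 were tested, and the dim remainder belonged to Hmgcs1, Insig2, Mbtps2 and Npc1. Of 19 genes with more than 1 tested probe, 9 had all probes on the same side of 0. None of the 56 probes passed when each of 23592 probes was tested on its own, where 0.0636% passed, and 8 (14.3%) did not overlap between groups, against 28.9% of all probes. A second Hmgcs1 probe read 0.48, -0.19 and -0.99 in LKO pools 1, 2 and 3, against -0.53, -1.24 and -1.38 in the controls, a difference of 0.82, where the brighter probe gave -0.02. That Hmgcs1 probe overlapped between groups. The 8 probes without overlap were 3 higher and 5 lower in LKO. Besides the brightest probes of Hsd17b7, Stard4, Npc1 and Srebf2, they were a dimmer Ggps1 probe, higher in every LKO pool (0.29), and dimmer probes of Sc5d (-0.47), Fdft1 (-0.41) and Mbtps1 (-0.36), lower in every LKO pool. The brightest probes of these genes overlapped. Tested probes of Lss differed by -0.01, 0.45 and -0.09, and those of Insig2 by -0.19 and -0.45, all with overlapping pools. The 3 probes of Cyp51 lay between 0.05 and 0.08, and both probes of Pmvk, which abut on the genome, gave 0.32 and 0.38.

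The synthesis enzymes varied between pools of the same genotype more than most genes did. The median SD of the 19 enzymes was 0.33 over LKO pools and 0.27 over control pools. It was 0.16 and 0.13 for all 16485 genes without a missing value, the enzymes included. LKO pool 3 was the lowest LKO pool in 15 of the 19 enzymes (78.9%), against 48% of all these genes. Control pool 3 was the highest control in 16 (84.2%), against 34.7%. LKO pool 3 was below every control in 13 (68.4%), against 34.5%. LKO pool 1 was above every control in 9 (47.4%), against 37.7%, and LKO pool 2 in 7 (36.8%), against 37%. Relative to the control mean, the median of the 19 enzymes stood at 0.13, 0.12 and -0.35 in LKO pools 1, 2 and 3, against -0.05, -0.17 and 0.30 in control pools 1, 2 and 3. On this scale control pool 3 (0.30) stood further from 0 than LKO pools 1 and 2. Against the mean of control pools 1 and 2 alone, control pool 3 was higher by a median of 0.45 over the enzymes. The 9 control and transport genes did not share this order: their medians were between -0.02 and 0.00 in the LKO pools and between -0.03 and 0.05 in the controls.

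For 12 of the 19 enzymes the value table put LKO pool 3 lower than the scanner file did. LKO pool 3 was then the lowest LKO pool in 17 of 19 (89.5%), against 36.1% of all genes, and the enzyme median stood at -0.72. The table minus scanner difference of LKO pool 3 was -1.68 for Sqle, -1.16 for Idi1, -0.95 for Cyp51 and -0.80 for Hmgcs1, while it was -0.05 for Mvd. It was above 0 for 7 enzymes, among them Sc5d (0.66), Dhcr7 (0.47), Pmvk (0.40) and Ebp (0.33). A list drawn up for SREBP-1c targets of fatty acid synthesis also includes Pklr, a pyruvate kinase of glycolysis. Its 9 genes did the opposite between the sources. Their median for LKO pool 3 was -0.62 by the scanner and 0.90 by the table, beside 0.80 and 0.71 in LKO pools 1 and 2, against -0.30, 0.13 and 0.19 in control pools 1, 2 and 3. The table value was below the scanner value for 12 of the 19 synthesis enzymes and for 0 of 9 fatty acid genes, against 6841 of all 16485 genes. For example, Fasn, the fatty acid synthase, read 6.46 in LKO pool 3 by the scanner and 8.37 by the table, beside 8.52 and 8.26 in LKO pools 1 and 2, against 6.78, 7.38 and 7.61 in the controls. Kupffer cell markers also differed between the sources, with a median genotype difference over 8 genes of -0.19 with the scanner files and 0.20 with the value table, none past the threshold. Their mean level lay between 2.26 and 2.46 in LKO arrays and between 2.03 and 2.88 in control arrays by the scanner files. Their part in the result was not tested. No tested marker of bile duct, stellate, endothelial, fat or pancreas cells passed with all pools. The 2 tested fat markers went in opposite directions. Cfd was lower in every LKO pool, at -3.44 (limma, adjusted p = 0.113), the lowest difference of all genes tested. Fabp4 was higher in every LKO pool, at 0.29 (adjusted p = 0.181). The part of fat cells in the result was not tested. One of 5 bile duct markers, Sox9, named here after its values were seen, was lower in every LKO pool (-1.12, adjusted p = 0.0581) and passed without LKO pool 3 (-1.06, adjusted p = 0.0478), the fit in which Insig1 passed. With the value table it was -0.65 and LKO pool 3 lay above the controls. The other 4 went the other way, higher in LKO with all pools (Epcam 0.70, Krt7 0.37, Spp1 0.19 and Krt19 0.07). None of these 4 passed without LKO pool 3. The part of bile duct cells in the Insig1 result was not tested.

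**Figure D4:**
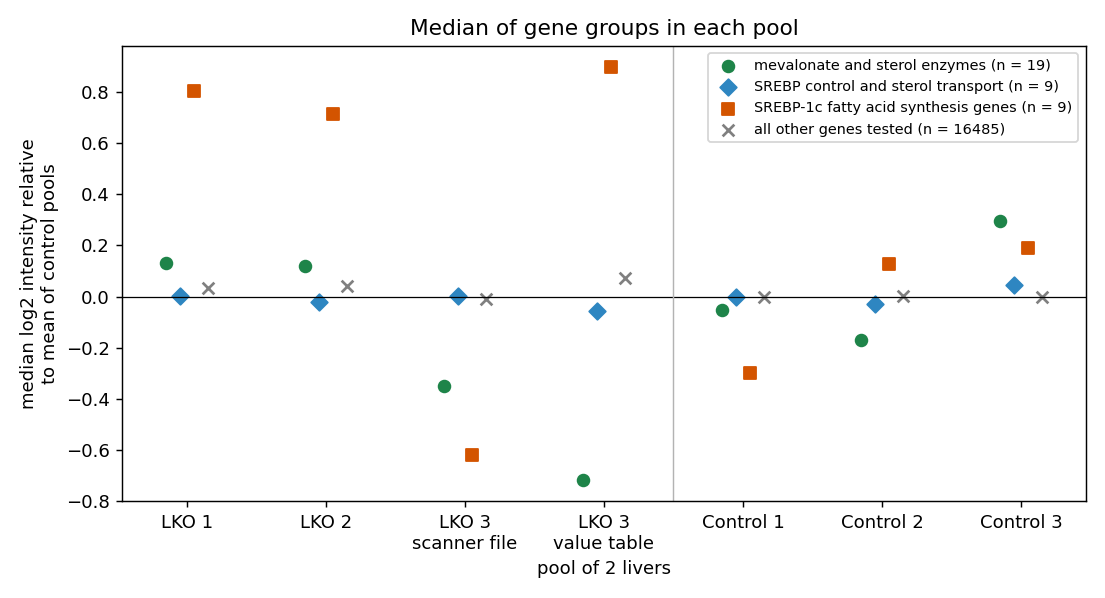
Median log2 intensity relative to the mean of the control pools (y axis) over the 19 synthesis enzymes, the 9 control and transport genes, the 9 genes of the fatty acid synthesis list and all genes tested, in each pool (x axis), with LKO pool 3 drawn from both sources. The legend calls the last set all other genes tested, but it includes the sets named. It names the fatty acid list after SREBP-1c, a label not claimed here for its member Pklr. The enzymes stand at -0.35 and -0.72 in LKO pool 3, where the fatty acid genes stand at -0.62 and 0.90.

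No gene of 5 other lists around the pathway passed with all pools. None of 6 remaining sterol enzymes and sterol-responsive genes passed, with Aacs, the acetoacetyl-CoA synthetase, at 0.61 (adjusted p = 0.352) and Lbr, a sterol reductase of the nuclear envelope, at 0.17 (adjusted p = 0.553). LKO pool 3 was the lowest LKO pool in all 6. None of 8 genes of sterol-regulated degradation passed, with Aup1, which recruits ubiquitin-conjugating enzymes at the endoplasmic reticulum, at -0.17 (adjusted p = 0.385). Of 8 genes of the isoprenoid branch 7 were tested and none passed, with Nus1, a subunit of the prenyltransferase of dolichol synthesis, at 0.30 (adjusted p = 0.202) and Dhdds, its catalytic partner, at 0.10 (adjusted p = 0.611). None of 7 genes of sterol esterification and transport passed, with Stard5, a sterol-binding protein, at 0.18 (adjusted p = 0.281) and Soat1, which esterifies cholesterol, at 0.47 (adjusted p = 0.284). Of the 9 genes of the fatty acid synthesis list none passed with all pools. Pklr, the liver pyruvate kinase and so an enzyme of glycolysis, was at 0.47 (adjusted p = 0.276). Acly, the ATP citrate lyase, was at 0.61 (adjusted p = 0.479). Pklr passed without LKO pool 3 (0.72, adjusted p = 0.0478) and with the value table (0.71, adjusted p = 0.0472), where 0.533% of all genes passed.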

How the data were processed

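Liver RNA pools of 3 SIRT1 LKO and 3 Lox control replicates were labelled with Cy3 from 500 ng, per the labels. Scanner files contain spot intensity from version 9.5 of Agilent Feature Extraction (per the submitters' notes), background-subtracted and detrended per the file headers, with other flags of 0 or 1 per spot deposited by the authors. The deposited value table holds linear intensity made with the Rosetta Resolver error model, per the labels; the labels do not say how its LKO pool 3 column was made.

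Control spots were left out, outlier spots set missing and spots of 1 probe averaged. From log2 intensity the array's 75th percentile was subtracted. Probes well above background throughout LKO, throughout control or both were tested (23593 probes); the probe with the highest mean stood for its gene. Accessions matched 22944 probes to RefSeq (GRCm38.p6), which renamed 5139. Probe coordinates are the files', on mm7; exons were not assigned. The fit was limma 3.58.1 in R 4.3.3 (genotype only, two-sided, Benjamini-Hochberg, threshold 0.05) and was tested on simulated data. Nothing in the labels ties pools to separate litters or days, so p-values measure the spread between pools. All members are named, with 2 genes of smallest p, and those past the threshold, from each other list; 1 gene so chosen is not reported here. The members and lists were chosen with earlier results of these data known. Shares for motifs and pool order are descriptions without a test. Alternatives are in the closing section. Figures used matplotlib 3.10.9.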

Additional observations from a re-analysis of the deposited data

How the results depend on the processing

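The count of the 28 genes past the threshold stayed at 0 under 16 of 17 alternatives: normexp background correction, quantile normalization, median centring, no filter on dim probes, a filter on all 6 arrays (27 of the genes), single probes, the mean over a gene's probes, slide as a random block, the replicate block, an intensity trend with robust variance, the value table and each left-out pool other than LKO pool 3. Leaving out each replicate gave 0 to 1 genes past the threshold, a median difference of -0.063 to 0.089 and 4 to 12 genes without overlap. The 12 came without LKO pool 3 and 9 without control pool 3, which also turned the median to 0.07; the mean of a gene's probes gave 0.03. With every probe on its own 8 probes did not overlap. Insig1 passed only without LKO pool 3 (1.001); its adjusted p ran from 0.0478 to 0.708 over the alternatives. All-gene calls ranged from 0 (normexp, no filter, both blocks and each left-out pool other than LKO pool 3) to 449 (without LKO pool 3), through 12 (quantile), 15 (single probes), 66 (all 6 arrays), 68 (trend) and 88 (value table), beside 24. The cause was not tested. The main fit did not treat same-numbered pools as pairs. Their deviations correlated at 0.00, -0.06 and -0.09, and those of different-numbered pools at -0.06 to 0.12. Deviations within a group of 3 sum to 0, so these values cannot show whether pools were matched. The replicate block gave 0 of the 28 genes (smallest adjusted p 0.184, Stard4). With the slide block that p was 0.483. Of the 28 differences, 7 changed sign without LKO pool 3, 7 without control pool 3 and 7 with the value table, none of them called. The number of arrays limits the precision, and Mbtps2 was not well above background on 1 control array.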
